A study of Rattus norvegicus with 12 samples.

Results

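The 36 genes described here encode the glucose and lactate carriers, the enzymes of glycolysis, the enzymes that decide the fate of pyruvate, the oxygen-sensing machinery and a set of genes that low oxygen is known to raise. They were chosen by name, with no threshold on a measured value, but with earlier results of these data known. On the rat array they were represented by 46 of 41012 distinct probes, and 31 of them were tested among 17636 genes or unnamed transcripts. The array's design listed Pkm as Pkm2, Ero1a as Ero1l and both probes of Pdk3 with a mapped suffix. The 5 genes that could not be tested, because no probe was well above background in either channel on all 3 arrays of any time, were Epas1, Ndrg1, P4ha1, Pdk2 and Pfkfb3.

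Glycolysis splits glucose into pyruvate in a chain of cytosolic steps that yields ATP without oxygen. Lactate dehydrogenase then turns pyruvate into lactate, which leaves the cell through monocarboxylate carriers, or pyruvate enters mitochondria unless pyruvate dehydrogenase kinases close that route. Many of these genes are direct targets of the hypoxia-inducible factors, whose alpha subunits are marked for destruction by prolyl hydroxylases when oxygen is present, so that control is mostly on the protein and not on the mRNA measured here. Neurons and glia differ in which isoform of a glycolytic enzyme they make, Eno2 being the neuronal enolase and Aldoc the brain aldolase.

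The cells were F11, a hybrid line in which a mouse neuroblastoma was fused with dorsal root ganglion neurons of the rat. All groups, the reference included, first spent 3 h in DMEM holding 0.5% FCS, and the forskolin groups then received 10 µM forskolin, which activates adenylyl cyclase, for 2, 4, 24 or 48 h. Each time had 3 arrays, 12 in all, and each array set forskolin RNA (Cy3, green) against RNA of unstimulated F11 cells (Cy5, red). A log2 change below is the within-array log2 ratio of forskolin over reference after loess, which removes a trend of the ratio with brightness. The reference was taken at the start, counted as 1 control sample, and carried the same dye on every array, so that a change against it holds the time in culture and any dye effect of the probe as well as forskolin. A difference between 2 forskolin times cancels the dye effect. The labels do not state whether the 3 samples of a time were separate cultures. The p-values thus reflect only how far these arrays vary among themselves, which may be technical variation. The share of signal from mouse transcripts on these rat probes was not tested.

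Over all genes tested, the 3 arrays of a time correlated at 0.868 to 0.941 at 4, 24 and 48 h, but at 0.609 to 0.793 at 2 h. Spots well above background numbered 19504 to 23285 of 43379 per array and channel. All 10 neuron markers were above background on all 12 arrays, while the glial markers Gfap and S100b, the fibroblast markers Dcn and Lum, the leukocyte markers Aif1 and Cd14 and the endothelial marker Pecam1 were above it on none. The glial marker Sox10, the fibroblast markers Col1a1 and Col1a2 and the endothelial marker Vwf were above it on all 12. Of 6 genes known to respond to cyclic AMP, chosen with earlier results of these data known, all 6 were called higher at 2 h after loess. Over all genes 10.1% were. Per1, at 0.19, was -0.16 where each array was only centred on its median.

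Within-array scaling decides the sign of many changes against the reference. The tested members are mostly bright: Gapdh lay at the 99th brightness percentile of the genes tested, Hif1a at 96.7, Eno1 at 96.0 and Aldoa at 93.1, with Slc2a3 at 15.1 and Pdk1 at 4.1 as the dimmest. On these arrays the green signal fell below the red as brightness rose. Where each array was only centred on its median, with no loess, the median change at 24 h over all genes tested was -0.45 and that of the members -0.69, against -0.02 and 0.23 after loess. Of the 25 members called at 24 h after loess (where 53.9% of all genes were called), 19 were higher and 6 lower, whereas median centring called 23, all lower, and median centring with the median of all genes taken off called 10 higher and 19 lower. The direction between forskolin times was far less open to this choice: all 23 members called for late (24 and 48 h) against early (2 and 4 h) forskolin kept their sign under each other processing setting that tested them and with each array left out. The comparisons between times are therefore given first for each group. For a member's change against the reference, the settings under which its sign turns stand beside it or only in the closing section on processing. A sign given without such a setting is that after loess and is not settled by its paragraph alone.

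**Figure D1:**
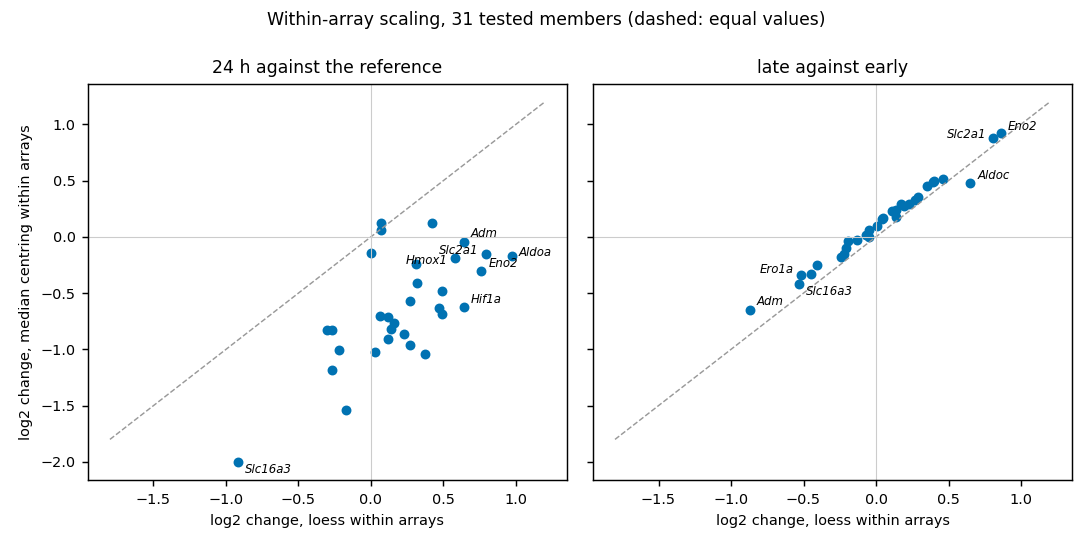
Log2 change of the 31 tested members after loess (horizontal) and after median centring (vertical), with 1 point per gene and a dashed line at equal values. At 24 h against the reference all points but that of Pdk1 lie below the line, Hif1a at 0.64 and -0.62 for example, while for late against early they follow it, Slc2a1 at 0.81 and 0.88.

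Late against early forskolin, 15 of the 31 tested members rose and 8 fell at an adjusted p under 0.05 (limma, Benjamini-Hochberg over all genes), where 26.4% of all genes tested rose and 24.5% fell, 50.9% in all. The members' median difference was 0.05, against 0.00 over all genes. Median centring called 13 members higher and 5 lower, where 5186 of 17635 genes were called in all. With the median of all genes taken off it was 10 higher and 8 lower, where 8098 of 17635 were called. The lead of rises over falls thus depends on scaling in its size. Slc2a1, Eno2 and Aldoc, which take up glucose, make phosphoenolpyruvate and split fructose bisphosphate, had the largest rises, at 0.81, 0.86 and 0.65. Adm, Slc16a3, Ero1a, Ldha and Pdk3 had the largest falls, by 0.87, 0.53, 0.52, 0.45 and 0.41, although the other probe of Ero1a did not fall, and with both averaged its difference was -0.19. In RNA of whole cultures, fewer cells making a gene and less of its RNA per cell cannot be told apart. Oxygen-sensing genes all rose (3 of 3 tested), upper glycolysis rose in 6 of 9 with 1 lower, lower glycolysis in 3 of 6 with 2 lower, and among genes for the fate of pyruvate none of 4 rose and 2 fell. Over the 4 times together, 27 of 31 members were called by the F test, where 53.9% of all genes were.

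**Figure D2:**
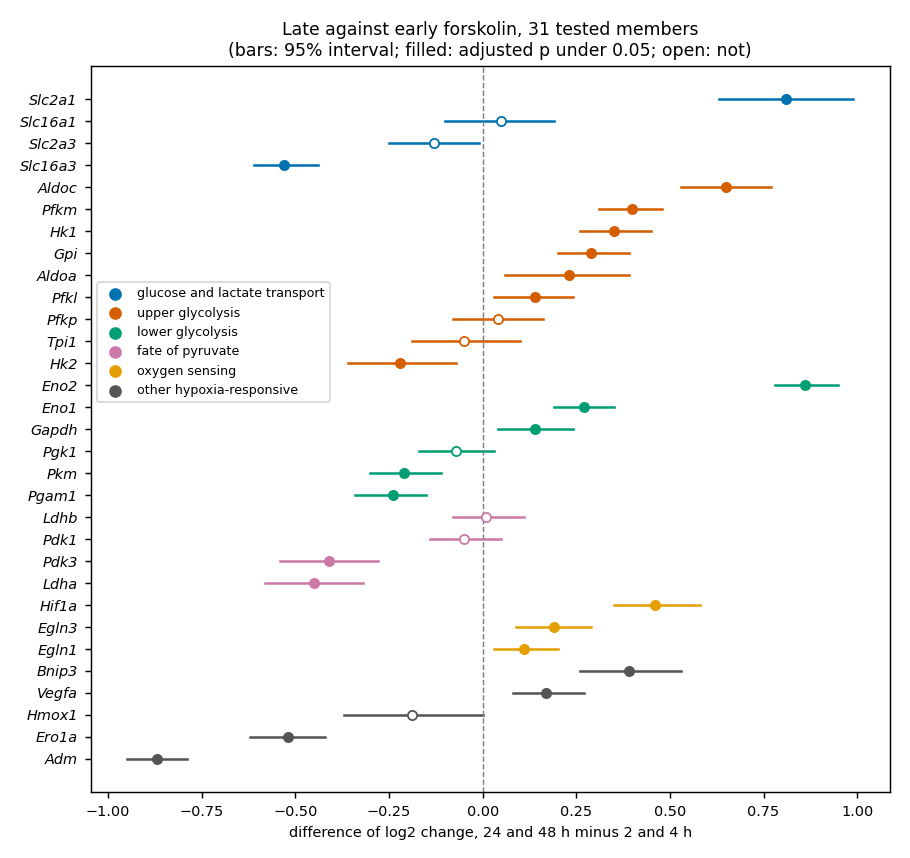
Difference of the log2 change between late (mean of 24 and 48 h) and early (mean of 2 and 4 h) forskolin for the 31 tested members, grouped and coloured by role, with 95% intervals from the limma fit on 12 arrays. Filled points passed an adjusted p of 0.05, 15 to the right of 0 and 8 to the left, and none of these changed sign under median centring.

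Against the reference, after loess, 17 of 31 members were called at 2 h, 11 higher and 6 lower, where 28.7% of all genes were called, 10.1% higher and 18.5% lower. At 4 h 19 were called, 14 higher and 5 lower, beside 50.1% of all genes, 19.7% higher and 30.4% lower. At 24 h 25 were called, 19 higher and 6 lower, beside 53.9%, 24.4% higher and 29.5% lower. At 48 h 24 were called, 18 higher and 6 lower, beside 57.7%, 27.1% higher and 30.6% lower. The share of members that fell was thus near or below the background at every time, and the share that rose above it. This lead in rises turns into a lead in falls under median centring, which called 1 higher and 26 lower at 2 h, none and 26 at 4 h, and 1 and 27 at 48 h. With the median of all genes taken off as well, the counts were 5 higher and 22 lower at 2 h, 8 and 18 at 4 h, and 7 and 19 at 48 h. Between successive times, 10 members were called from 2 to 4 h, 5 higher and 5 lower, where 15.9% of all genes were, 5.64% higher and 10.2% lower. From 4 to 24 h 18 were called, 11 higher and 7 lower, where 39.1% of all genes were, 21.2% higher and 18.0% lower. From 24 to 48 h 8 were called, 3 higher and 5 lower, where 15.0% of all genes were, 8.11% higher and 6.88% lower. Median centring called 0 higher and 1 lower, 6 and 1, and 2 and 1 in these 3 steps, and with the median of all genes taken off 1 and 1, 7 and 7, and 2 and 5. The count from 2 to 4 h rested on single arrays: it was 3 without replicate 3 at 4 h, 5 without replicate 2 at 4 h and 6 without replicate 1 at 2 h. At 2 h against the reference, it was 11 without replicate 2 and 9 without replicate 3 of that time.

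Among the carriers, Slc2a1, the widespread glucose transporter, rose between 4 and 24 h, and Slc16a3, the carrier that exports lactate from glycolytic cells, fell. On the 3 arrays of each time, the log2 change of Slc2a1 was -0.51, 0.05 and -0.01 at 2 h, -0.04, -0.18 and -0.11 at 4 h, 0.89, 0.75 and 0.74 at 24 h, and 0.69, 0.49 and 0.51 at 48 h. Every late array thus lay above every early one, and replicate 1 at 2 h lay below the rest. The rise from 4 to 24 h was 0.90 ± 0.12 (SE, adjusted p = 3.4e-05), and late against early it was 0.81 ± 0.08 (SE, adjusted p = 1.8e-06), or 0.72 without replicate 1 at 2 h. Against the reference the means were 0.79 ± 0.09 (SD, n = 3) at 24 h and 0.56 ± 0.11 at 48 h, which become -0.15 and -0.41 under median centring, and 0.31 and 0.06 with the median of all genes taken off. The probe is printed as 10 spots, whose spread within an array had a median SD of 0.04.

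Slc16a3 read -0.15, -0.11 and -0.19 at 2 h, -0.28, -0.38 and -0.37 at 4 h, -0.88, -0.89 and -0.99 at 24 h, and -0.58, -0.65 and -0.67 at 48 h. The groups did not overlap at any step, the lowest values standing at 24 h. It fell from 4 to 24 h by 0.57 ± 0.06 (SE, adjusted p = 2.2e-06) and rose from 24 to 48 h by 0.28 ± 0.06 (SE, adjusted p = 0.0036). Slc16a3 kept the sign of this last rise but lost its call under median centring, alone or with the median of all genes taken off. Its fall at 24 h, -0.92 ± 0.06 (SD, n = 3, a 1.89-fold decrease), kept its direction under every setting and was -2.0 under median centring. The related carrier Slc16a1 was not called at any time, at -0.07, -0.03, 0.06 and -0.07, with a late-minus-early interval of -0.10 to 0.19. On each array the change of Slc16a3 minus that of Slc16a1 ran from -0.16 to 0.04 at 2 h and from -1.10 to -0.88 at 24 h.

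Slc2a3, the neuronal glucose transporter, had a dim probe, above background in green on 11 and in red on 9 of the 12 arrays. It read 0.42, 0.34 and 0.23 at 2 h, and between -0.13 and 0.19 on the 9 later arrays, so that only the 2 h arrays stood apart. It fell by 0.28 ± 0.08 from 2 to 4 h (SE, adjusted p = 0.024), a call lost at -0.29 to -0.24 without any one of replicates 1 and 2 at 2 h and replicates 1, 2 and 3 at 4 h. With no offset added to the signals it was -0.61 and not called (adjusted p = 0.061, limma). Slc2a1 minus Slc2a3 went from -0.48 ± 0.39 at 2 h to 0.72 ± 0.15 at 24 h (SD, n = 3), and the 24 h value turns to -0.20 under median centring.

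The window upstream of Slc2a1 is shown with those of Eno2, which rose with it between 4 and 24 h, and of Ldha, which fell over the same step. Capitals mark ACGTG, the core of the hypoxia response element, and TGACGTCA, the palindromic cyclic AMP response element, found on either strand. The sequences are the 250 bases before the gene's start in RefSeq, build GRCr8, in the direction of the gene: Slc2a1 at chr5:138002272-138002521 (plus strand), Eno2 at chr4:159267221-159267470 (minus strand) and Ldha at chr1:106507842-106508091 (plus strand).
Slc2a1: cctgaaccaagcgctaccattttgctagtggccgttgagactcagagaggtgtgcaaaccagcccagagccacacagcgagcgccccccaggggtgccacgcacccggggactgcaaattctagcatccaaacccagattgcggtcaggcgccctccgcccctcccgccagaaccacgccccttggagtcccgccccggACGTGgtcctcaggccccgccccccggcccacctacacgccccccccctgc
Eno2: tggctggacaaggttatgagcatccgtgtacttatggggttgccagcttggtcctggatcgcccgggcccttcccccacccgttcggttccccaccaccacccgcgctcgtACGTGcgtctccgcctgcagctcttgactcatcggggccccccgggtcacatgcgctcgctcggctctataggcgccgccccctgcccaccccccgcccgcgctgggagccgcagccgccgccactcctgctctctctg
Ldha: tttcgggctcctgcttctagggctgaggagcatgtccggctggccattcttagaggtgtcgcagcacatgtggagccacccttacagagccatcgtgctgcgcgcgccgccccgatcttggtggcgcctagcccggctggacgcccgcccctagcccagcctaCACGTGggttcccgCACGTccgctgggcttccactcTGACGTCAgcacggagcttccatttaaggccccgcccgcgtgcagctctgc
In these windows Slc2a1 and Eno2 hold ACGTG once, and Ldha holds it at 3 places, 2 of them the opposite strands of 1 stretch, and TGACGTCA once. A window was found by symbol for 31 of the 36 members, 36 windows in all. ACGTG was present in 15 of them and in 16.6% of all 33469 promoters of this length. TGACGTCA was present in 1, that of Ldha, and in 1.59% of all, and its first 5 letters TGACG, which it contains, in 6 windows of 5 genes and in 18.2% of all. These are matches of letters and say nothing of binding.

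In the upper part of glycolysis, which spends ATP to make triose phosphates, the late rises were those of Aldoc, Pfkm, Hk1, Gpi, Aldoa and Pfkl, and Hk2 fell. Aldoa and Aldoc, the muscle and brain aldolases, followed different courses. Aldoa read 0.48, 0.56 and 0.76 at 2 h, 0.54, 0.79 and 0.89 at 4 h, 0.77, 1.08 and 1.07 at 24 h, and 0.77, 0.90 and 0.77 at 48 h. It was above 0 on every array and the times overlapped. Its late-minus-early difference was 0.23 ± 0.07 (SE, adjusted p = 0.022), a call lost at 0.17 to 0.20 without replicate 1 at 2 h or 4 h, replicate 2 or 3 at 24 h, or replicate 2 at 48 h. Its change against the reference, 0.97 ± 0.18 (SD, n = 3) at 24 h, was -0.17 under median centring and 0.29 with the median of all genes taken off, and at 2 h it was below 0 under both.

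Aldoc stayed near 0 early, at 0.01, 0.08 and 0.14 at 2 h and 0.30, 0.11 and 0.13 at 4 h. It reached 0.36, 0.48 and 0.42 at 24 h and 1.11, 1.28 and 1.02 at 48 h, with the 48 h arrays above all others. The step from 24 to 48 h was 0.71 ± 0.08 (SE, adjusted p = 2.7e-05, 1.64-fold), and the 48 h mean of 1.13 ± 0.13 (SD, n = 3) stayed above 0 at 0.72 under median centring. The earlier step from 4 to 24 h, 0.24 ± 0.08 (SE, adjusted p = 0.022), was -0.02 with the median of all genes taken off, and its call was lost at 0.21 to 0.24 without replicate 2 or 3 of either time. Aldoc minus Aldoa was -0.52, -0.56 and -0.55 at 2, 4 and 24 h and 0.32 ± 0.07 (SD, n = 3) at 48 h, a rise at the last step that median centring also gave, from 0.29 to 1.08. The sign before 48 h is open to scaling, since median centring gave 0.52, 0.48 and 0.29 at 2, 4 and 24 h.

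**Figure D3:**
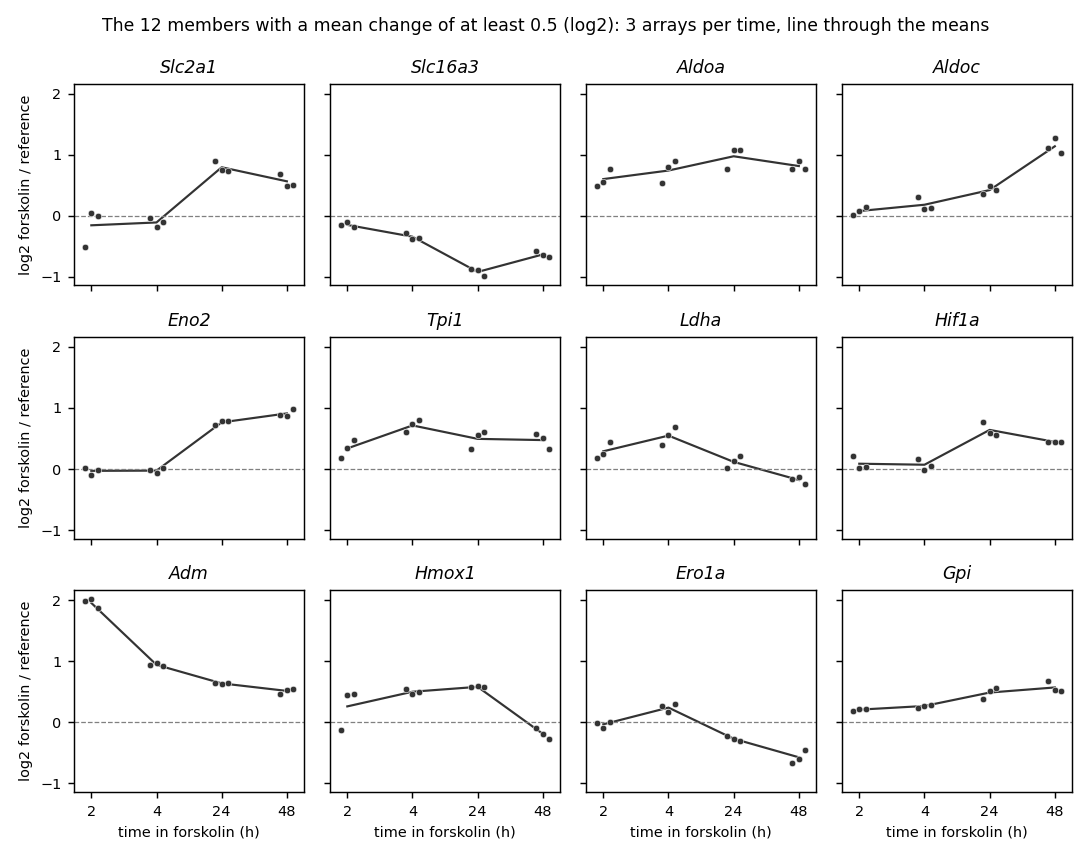
Log2 change against the reference, after loess, of the 12 members whose mean change reached 0.5 at some time or for late against early. Each point is 1 of 3 arrays per time, placed at equal steps for 2, 4, 24 and 48 h, with a line through the means. Adm falls from 1.95 to 0.51, Aldoc climbs to 1.13, and Slc2a1 and Eno2 step up between 4 and 24 h. Under median centring the 24 h means of all 12 but Aldoc lie below 0.

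Phosphofructokinase, the committed step, has muscle, liver and platelet subunits, and the muscle form Pfkm rose at the last step. Pfkm read -0.18, -0.25 and -0.26 at 2 h, -0.38, -0.33 and -0.35 at 4 h, -0.18, -0.23 and -0.24 at 24 h, and 0.51, 0.35 and 0.44 at 48 h. The 48 h arrays were the only ones above 0, and the step from 24 to 48 h was 0.65 ± 0.06 (SE, adjusted p = 5.2e-06). Its level at 48 h, 0.43 ± 0.08 (SD, n = 3), became -0.44 under median centring and 0.03 with the median of all genes taken off, but its 48 h mean remained above its 24 h mean of -1.01 and -0.55 there. Pfkl was at 0.09, 0.05, 0.14 and 0.27 over the 4 times, and its late rise of 0.14 (adjusted p = 0.029) was lost at 0.11 to 0.14 without replicate 1 at 2 h, replicate 2 or 3 at 4 h, replicate 2 at 24 h or replicate 1 at 48 h. Pfkp lay at -0.19, -0.26, -0.27 and -0.10 and was not called for late against early (0.04, interval -0.08 to 0.16). Pfkm minus Pfkl was -0.32 ± 0.14, -0.41 ± 0.05 and -0.36 ± 0.08 at 2, 4 and 24 h and 0.16 ± 0.06 at 48 h (SD, n = 3), so that Pfkm lay below Pfkl until 24 h and above it at 48 h, as it did under median centring (-0.18 and 0.30 at 24 and 48 h). Pfkm minus Pfkp moved from 0.05 ± 0.04 at 24 h to 0.53 ± 0.12 at 48 h (SD, n = 3), and from 0.17 to 0.63 under median centring.

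Hk1 and Hk2 phosphorylate glucose, Hk1 being the form common in brain. Hk1 read -0.30, -0.15 and -0.12 at 2 h, -0.29, -0.39 and -0.30 at 4 h, 0.06, 0.15 and 0.15 at 24 h, and 0.01, 0.07 and 0.12 at 48 h. All early arrays lay below 0 and all late ones above, a late rise of 0.35 ± 0.04 (SE, adjusted p = 1.3e-05). The other probe of Hk1 read 0.20 and 0.18 at 2 and 4 h and 0.43 and 0.37 at 24 and 48 h, so that the probes disagreed on the early sign, and the 2 h change was 0.00 when both were averaged. Hk2, dim at 48 h (above background in green on 1 and in red on 2 of 3 arrays), stood out only at 4 h, at 0.30, 0.29 and 0.42. It rose by 0.38 ± 0.10 from 2 to 4 h (SE, adjusted p = 0.015) and fell by 0.34 ± 0.10 from 4 to 24 h (SE, adjusted p = 0.012), and both calls were lost without replicate 3 at 4 h, at 0.34 and -0.30. The first was also lost without replicate 3 at 2 h (0.36) and the second without replicate 3 at 24 h (-0.27).

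Gpi, which turns glucose phosphate into fructose phosphate, climbed from 0.18, 0.22 and 0.22 at 2 h and 0.24, 0.27 and 0.29 at 4 h to 0.38, 0.52 and 0.56 at 24 h and 0.67, 0.53 and 0.51 at 48 h. Late arrays all exceeded early ones, by 0.29 ± 0.04 (SE, adjusted p = 6.6e-05). Tpi1, which interconverts the triose phosphates, read 0.18, 0.35 and 0.48 at 2 h, 0.60, 0.73 and 0.81 at 4 h, 0.32, 0.56 and 0.60 at 24 h, and 0.58, 0.51 and 0.33 at 48 h. It was highest at 4 h, 0.71 ± 0.11 (SD, n = 3), and the step from 2 to 4 h, 0.38 ± 0.10 (SE, adjusted p = 0.019), was lost at 0.30 to 0.37 without replicate 1 at 2 h or replicate 2 or 3 at 4 h. The changes of Gpi and Tpi1 against the reference were below 0 under median centring at every time, and with the median of all genes taken off only Tpi1 at 4 h, at 0.19, stayed above it.

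In the lower part of glycolysis, which pays out ATP, Eno2 rose between 4 and 24 h. It read 0.02, -0.09 and -0.02 at 2 h, -0.02, -0.07 and 0.01 at 4 h, 0.72, 0.78 and 0.79 at 24 h, and 0.89, 0.86 and 0.98 at 48 h. The late arrays lay far above the early ones, and the spread within a time was at most 0.06 (SD). The rise from 4 to 24 h was 0.79 ± 0.06 (SE, adjusted p = 9.0e-08, 1.73-fold) and late against early 0.86 ± 0.04 (SE, adjusted p = 4.3e-10), and it was 0.92 under median centring. Its 24 h change against the reference, 0.76 ± 0.04 (SD, n = 3), became -0.30 under median centring and 0.16 with the median of all genes taken off.

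Eno1, the widespread enolase, rose less. It read -0.14, -0.06 and -0.12 at 2 h, -0.02, 0.00 and 0.04 at 4 h, 0.23, 0.30 and 0.28 at 24 h, and 0.20, 0.14 and 0.16 at 48 h, a late rise of 0.27 ± 0.04 (SE, adjusted p = 2.2e-05). Eno2 minus Eno1 on each array was between -0.07 and 0.16 early, between 0.48 and 0.51 at 24 h, and between 0.68 and 0.82 at 48 h, with means of 0.66 and 0.90 at 24 and 48 h under median centring. Neuron markers moved over the same times: 8 of 10 rose and 2, the neurofilament genes Nefl and Nefm, fell late against early (26.4% and 24.5% of all genes), with 7 and 2 under median centring and 6 and 2 with the median of all genes taken off. Against the reference 5 rose and 3 fell at 24 h (24.4% and 29.5% of all genes) and 9 rose with none lower at 48 h (27.1% and 30.6%). These counts turn under median centring, to 2 higher and 8 lower at 24 h and 2 and 7 at 48 h, and with the median of all genes taken off to 2 and 7, and 3 and 4. Their summed green intensity, most of it from Prph and Elavl4, ran from 57248 to 62022 at 2 h, 53680 to 57586 at 4 h, 74322 to 79863 at 24 h and 94397 to 103769 at 48 h. Their part in the rises of Eno2, Aldoc and Slc2a1 was not tested.

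**Figure D4:**
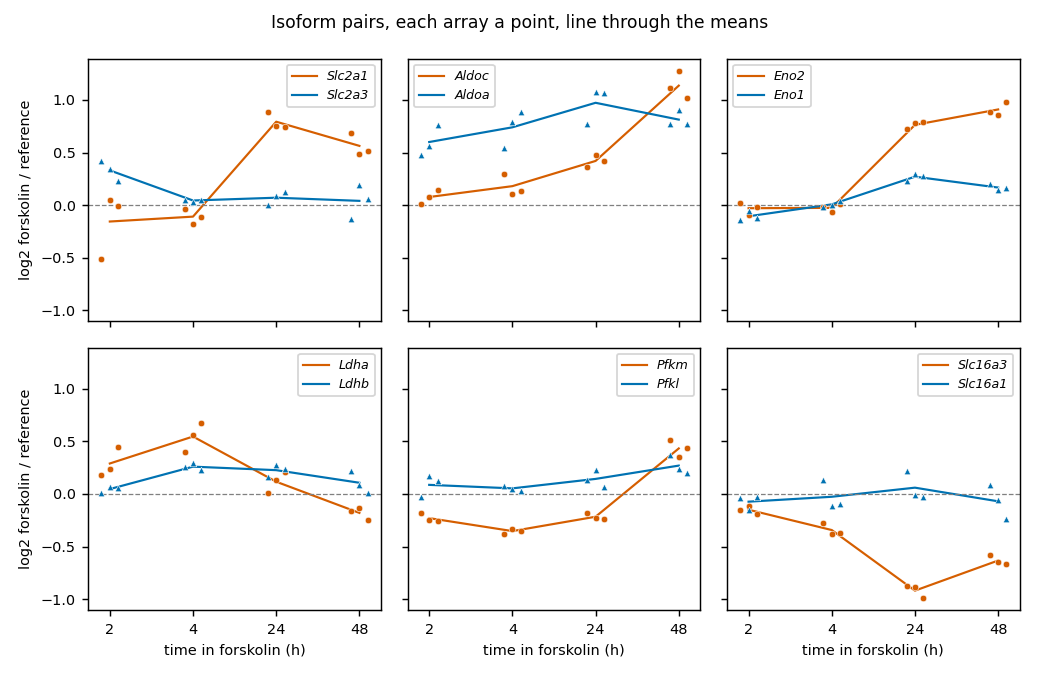
Log2 change against the reference, after loess, for 6 pairs of isoforms, with 3 arrays per time as points (circles for the first gene named, triangles for the second) and lines through the means. Eno2 parts from Eno1 at 24 h, by 0.49, Aldoc passes Aldoa at 48 h, and Slc16a3 falls away from Slc16a1. Under median centring the 24 h lead of Slc2a1 over Slc2a3 turns to -0.20, while Eno2 keeps a lead of 0.66 over Eno1. There Aldoc lies above Aldoa in the means of every time, by 0.29 at 24 h, so that pair does not cross.

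Between successive times the other lower enzymes changed by less than Eno2 did from 4 to 24 h. Gapdh, often used as a reference gene, stood at 0.16, 0.20, 0.37 and 0.26 over the 4 times, with a late rise of 0.14 ± 0.05 (SE, adjusted p = 0.021) that was 0.05 and not called with the median of all genes taken off. The call was also lost, at 0.12 to 0.13, without replicate 1 at 2 h or replicate 2 or 3 at 24 h. Pgk1, which makes the first ATP of the pathway, reached 0.47 at both 4 and 24 h and fell by 0.33 ± 0.07 from 24 to 48 h (SE, adjusted p = 0.0046). Pkm, which makes the last, fell by 0.29 ± 0.06 over that step (SE, adjusted p = 0.0054), its 48 h arrays at -0.24, -0.29 and -0.24 lying below all others. Pgam1 fell late by 0.24 on its brighter probe, but its other probe read 0.29, 0.55, 0.33 and 0.17, so that the gene's direction against the reference differs between probes. The array's design places the brighter probe on chromosome 10 and the other on chromosome 6 of build rn3, and neither on chromosome 1, where RefSeq has the gene in build GRCr8. Gapdh, Pgam1, Pgk1 and Ldha have many processed copies in rodent genomes, and the array cannot tell them apart.

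Among the genes that decide the fate of pyruvate, Ldha, whose enzyme favours lactate, rose early and then declined. It read 0.18, 0.24 and 0.45 at 2 h, 0.40, 0.56 and 0.68 at 4 h, 0.01, 0.13 and 0.21 at 24 h, and -0.16, -0.13 and -0.25 at 48 h. The 48 h arrays were the only ones below 0. It fell from 4 to 24 h by 0.43 ± 0.09 (SE, adjusted p = 0.0012) and late against early by 0.45 ± 0.06 (SE, adjusted p = 2.6e-05). Its early rise over the reference, 0.55 ± 0.14 (SD, n = 3) at 4 h, was -0.61 under median centring and -0.02 with the median of all genes taken off. The sign of that rise is thus open to scaling, while the direction of the decline is not. From 4 to 24 h median centring called only 1 member lower, where loess called 7, so calls of falls over that step depend on scaling. The window of Ldha, printed above, holds TGACGTCA, and any part of that element in these changes was not tested.

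Ldhb, whose enzyme favours pyruvate, read 0.01, 0.07 and 0.06 at 2 h, 0.26, 0.29 and 0.23 at 4 h, 0.16, 0.28 and 0.24 at 24 h, and 0.22, 0.09 and 0.01 at 48 h. It was not called for late against early (0.01, interval -0.08 to 0.11). Ldha minus Ldhb went from 0.28 ± 0.16 at 4 h to -0.29 ± 0.08 at 48 h (SD, n = 3), with 0.32 and -0.22 under median centring, a pair of similar brightness. Pdk3, a kinase that shuts off pyruvate dehydrogenase, read 0.04, 0.00 and 0.27 at 4 h and -0.21, -0.32 and -0.38 at 24 h, a fall of 0.40 ± 0.09 (SE, adjusted p = 0.0018), and stood at -0.30, -0.46 and -0.45 at 48 h. Its late fall was 0.41 ± 0.06 (SE, adjusted p = 6.1e-05). The other probe of Pdk3, at 0.06, 0.07, -0.01 and 0.03 over the 4 times, was above background on no array and was not used. Pdk1, the kinase best known as a target of the hypoxia-inducible factors, had the dimmest probe tested, above background in green on 7 and in red on 9 of 12 arrays. It lay between -0.12 and 0.19 on all 12 arrays and was called at no time and for no pair of times, so a change was not detectable at this signal.

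The 3 tested oxygen-sensing genes were each higher late than early, though by different courses. Hif1a, the oxygen-regulated subunit, read 0.22, 0.01 and 0.03 at 2 h, 0.17, -0.01 and 0.05 at 4 h, 0.77, 0.59 and 0.56 at 24 h, and 0.44, 0.44 and 0.45 at 48 h. Every late array exceeded every early one, by 0.46 ± 0.05 in the means (SE, adjusted p = 4.6e-06), and the step from 4 to 24 h was 0.57 ± 0.07 (SE, adjusted p = 3.3e-05). Its other probe moved likewise, from 0.24 and 0.38 at 2 and 4 h to 0.89 and 0.71 at 24 and 48 h. Against the reference its 24 h change of 0.64 ± 0.11 (SD, n = 3) turned to -0.62 under median centring and -0.17 with the median of all genes taken off.

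Egln1 and Egln3 encode prolyl hydroxylases that mark the alpha subunits, Egln3 being itself raised by low oxygen. Egln3 read 0.04, 0.06 and -0.15 at 2 h, 0.28, 0.18 and 0.28 at 4 h, 0.36, 0.28 and 0.28 at 24 h, and 0.26, 0.31 and 0.33 at 48 h. It was above its 2 h values on all 9 later arrays, and late against early it rose by 0.19 ± 0.05 (SE, adjusted p = 0.0027). After loess its rise came from 2 to 4 h, by 0.26 ± 0.06 (SE, adjusted p = 0.013, limma). From 4 to 24 h Egln3 was not called, at 0.06 (adjusted p = 0.49, limma). Settings that lost the call from 2 to 4 h included median centring and the fit without replicate 3 at 4 h. Under median centring its arrays read -0.72, -0.53 and -0.63 at 2 h and -0.52, -0.48 and -0.32 at 4 h. They read -0.08, -0.30 and -0.34 at 24 h, so the rise there was not confined to the first step. Egln1 dipped at 4 h (-0.02, -0.07 and 0.06) between 2 h (0.23, 0.18 and 0.19) and 24 h (0.24, 0.28 and 0.30), and read 0.15, 0.18 and 0.10 at 48 h. The step from 4 to 24 h was 0.28 ± 0.05 (SE, adjusted p = 0.00069), and the small late rise of 0.11 (adjusted p = 0.021) was lost without replicate 2 at 4 h (0.10) or at 48 h (0.11). Epas1, the other oxygen-regulated subunit, was above background in green on no array and in red on 1 of 12, so its change was not measured.

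Of the other genes known to respond to low oxygen, Adm had the largest change of any member. Adm encodes adrenomedullin, a vasodilator peptide. Its arrays read 1.98, 2.01 and 1.87 at 2 h, 0.93, 0.97 and 0.92 at 4 h, 0.64, 0.62 and 0.65 at 24 h, and 0.47, 0.53 and 0.54 at 48 h. After loess the times did not overlap and the order was downward, while under median centring the arrays of 4, 24 and 48 h overlapped. Adm was 1.95 ± 0.07 (SD, n = 3, 3.87-fold) at 2 h (adjusted p = 4.1e-13). It fell from 2 to 4 h by 1.01 ± 0.05 (SE, adjusted p = 4.9e-08) and again from 4 to 24 h by 0.30 ± 0.05 (SE, adjusted p = 0.00044). The step from 24 to 48 h, -0.12, was not called (adjusted p = 0.16, limma). The 2 h rise kept its sign under every scaling, at 0.98 under median centring and 1.56 with the median of all genes taken off, whereas its 24 and 48 h values were -0.05 and -0.21 under median centring.

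Hmox1, heme oxygenase, read -0.13, 0.44 and 0.47 at 2 h, 0.54, 0.47 and 0.49 at 4 h, 0.57, 0.59 and 0.58 at 24 h, and -0.10, -0.19 and -0.28 at 48 h. It fell at the last step, with no overlap, by 0.77 ± 0.12 (SE, adjusted p = 6.8e-04). Replicate 1 at 2 h stood apart from the other 2 h arrays, as it did for Slc2a1. The late-minus-early difference of -0.19 was not called (adjusted p = 0.087) but was -0.28 and called without that array. The rises over the reference at 4 and 24 h, 0.50 and 0.58, were -0.41 and -0.19 under median centring, and 0.18 and 0.27 with the median of all genes taken off.

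Ero1a, an oxidase of disulphide formation in the endoplasmic reticulum, read -0.02, -0.09 and 0.01 at 2 h, 0.26, 0.16 and 0.30 at 4 h, -0.23, -0.28 and -0.30 at 24 h, and -0.67, -0.60 and -0.45 at 48 h. Its brighter probe fell from 4 to 24 h by 0.50 ± 0.07 (SE, adjusted p = 3.2e-05) and again from 24 to 48 h by 0.31 ± 0.07 (SE, adjusted p = 0.0063). The other probe did not follow, at 0.11, 0.11, 0.33 and 0.19, and the 24 h change was 0.03 with both averaged. Bnip3, a mitophagy receptor, rose late by 0.39 ± 0.06 (SE, adjusted p = 9.4e-05), from between -0.30 and 0.06 on the early arrays to between 0.19 and 0.51 on the late ones.

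Vegfa, the vascular growth factor, moved little on its brighter probe and more on the other. Both lie in the coding sequence, and they are printed to show what each reads. The brighter opens with the start codon, in capitals, and reads the signal peptide (A_44_P300751, chr9:10519066-10519125 in build rn3), and the other reads further into the coding sequence, its positions being set apart by an intron (A_43_P15572, chr9:10525902-10526287).
A_44_P300751: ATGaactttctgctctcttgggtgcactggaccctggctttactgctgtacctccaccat
A_43_P15572: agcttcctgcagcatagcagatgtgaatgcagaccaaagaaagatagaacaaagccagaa
The brighter probe read 0.15, -0.12, 0.16 and 0.22 at 2, 4, 24 and 48 h, and the other 0.55 ± 0.17, 0.07 ± 0.15, 0.59 ± 0.08 and 0.37 ± 0.23 (SD, n = 3). Both dipped at 4 h. On the brighter probe the dip was a fall of 0.26 ± 0.06 from 2 to 4 h (SE, adjusted p = 0.013) and a rise of 0.27 ± 0.06 from 4 to 24 h (SE, adjusted p = 0.0038), and late against early Vegfa rose by 0.17 (adjusted p = 0.0054). Its changes against the reference were below 0 at all 4 times under median centring.

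Neighbouring pathways were followed through lists of genes that are not members, and their medians and counts stand beside a median late-minus-early difference of 0.00 over all genes, of which 26.4% rose and 24.5% fell. Of 18 tested genes of the tricarboxylic acid cycle, none rose and 12 fell late against early, with a median of -0.20, and with the median of all genes taken off the counts were the same, while median centring called 4 lower and 1 higher. Fh, the fumarase, and Sdhc, of succinate dehydrogenase, fell by 0.56 and 0.24.

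Glycogen and gluconeogenesis gave 4 higher and 2 lower of 13 (3 and 3 with the median of all genes taken off), a share of rises near that over all genes, with rises of 1.04 in Pck2 and 0.60 in Pc, which feed oxaloacetate into phosphoenolpyruvate or make it, and a fall of 0.40 in Ugp2. Other glucose-use genes gave 3 higher and 5 lower of 13, Adpgk at 0.36 and Pdp1, the phosphatase that reopens pyruvate dehydrogenase, at -0.84, and median centring gave 4 higher and 1 lower. Other targets of the hypoxia-inducible factors were split, with 7 higher and 9 lower of 18 and a median of -0.17. In that list Ddit4 rose by 0.76 and Pgf by 0.64, while Higd1a fell by 0.73 and Kdm3a by 0.33, each with the same sign under median centring. These were taken by their 24 h change, and Cited2 and Ak4, named after their values were seen, fell by 0.96 and 0.68 late against early. Of 5 genes of the pathway itself, among them Egln2 and Cited2, which are also counted in the list just given, 1 rose and 3 fell, with Egln2 at 0.21 and Vhl at -0.14. Of 6 targets of NRF2, which also drives Hmox1, none rose and 2 fell, Txnrd1 by 0.79.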

How the data were processed

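Per spot, the deposited scanner files give mean and background intensity of both channels, processed intensity, flags and a log10 ratio. Their headers name Feature Extraction version 9.5.1.1. The authors' deposited log2 values are in the series matrix. For these, limma is named in the submitters' processing notes, with no normalization stated. They ran as red over green (r of -0.998 to -0.995 with green over red, column medians 0.0067 to 0.0125) and were turned before use as an alternative, and 170 non-control spots have no value there.

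Mean intensities were corrected with normexp (offset 50) and scaled by loess within arrays in limma 3.58.1 (R 4.3.3, version 1.17.8 of data.table), with control spots given weight 0. Outlier-flagged spots were dropped and the rest averaged per probe. A probe was used if either channel stood well above background on all 3 arrays of some time (39 of the 46 member probes), and the brightest stood for its gene. Other probes took RefSeq (GRCr8) names by accession (10693), symbol (5568) or synonym (3728), and 20977 had no match. A mean per time was fitted to the 12 arrays (lmFit, eBayes, 8 residual degrees of freedom), with Benjamini-Hochberg adjustment over all genes and calls at an adjusted p under 0.05. The fit was tested on simulated ratios.

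Array values are given for members with a mean change of at least 0.5, isoform pairs, Hif1a, Epas1, Egln1 and Egln3. From each other list, at most the 2 called genes with the largest change each way at 24 h are named. A further list is not reported here. Members, lists and rules were chosen with earlier results of these data known.

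By the file headers, a replicate number is a shared slide and each time held 1 position on the slides, so position and time cannot be told apart. Deviations of same-numbered arrays correlated at 0.052 to 0.480 (mean 0.25, 18 pairs) and those of other numbers at -0.402 to 0.309. The number of arrays limits the precision. Alternatives were no background correction, an offset of 0, processed signals, median centring alone or with the median of all genes taken off, other filters, averaged probes, the slide as a block, the deposited values and each array left out.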

Additional observations from a re-analysis of the deposited data

Results flagged for a closer look

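The results below differed between forskolin times by a test of the difference itself (limma, adjusted p under 0.05) and by at least 0.5 on the log2 scale. Late against early forskolin, the differences were 0.86 for Eno2, 0.81 for Slc2a1 and 0.65 for Aldoc, and -0.87 for Adm, -0.53 for Slc16a3 and -0.52 for Ero1a (-0.19 with both of its probes averaged). From 2 to 4 h the difference was -1.01 for Adm. From 4 to 24 h it was 0.90 for Slc2a1, 0.79 for Eno2, 0.57 for Hif1a, -0.57 for Slc16a3 and -0.50 for Ero1a, whose other probe shared neither fall. From 24 to 48 h it was 0.71 for Aldoc, 0.65 for Pfkm and -0.77 for Hmox1. With 3 arrays per time, no single array was tested for standing apart.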

How the results depend on the processing

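Each comparison of a gene between times or with the reference was recomputed under every setting. Under median centring 70 of 248 values changed sign, with the median of all genes taken off 56, and with kept probes averaged 3, while no value did under the other background corrections, the processed signals, the filters, the slide block, the deposited values or any array left out. Median centring with no loess gave at 2 h -0.64 (Aldoa), -0.78 (Egln1), -1.36 (Gapdh), -1.07 (Gpi), -1.28 (Hif1a), -0.59 (Hmox1), -0.87 (Ldha), -1.15 (Ldhb), -0.65 (Pdk3), -1.0 (Pfkl), -1.47 (Pgam1), -0.94 (Pgk1), -1.14 (Pkm), -0.75 (Tpi1) and -0.95 (Vegfa). At 4 h it gave -0.47 (Aldoa), -0.44 (Egln3), -1.28 (Eno1), -0.54 (Ero1a), -1.22 (Gapdh), -0.97 (Gpi), -1.23 (Hif1a), -0.41 (Hmox1), -0.61 (Ldha), -0.93 (Ldhb), -0.61 (Pdk3), -1.04 (Pfkl), -1.38 (Pgam1), -0.72 (Pgk1), -1.02 (Pkm) and -0.40 (Tpi1). At 24 h it gave -0.05 (Adm), -0.17 (Aldoa), -0.41 (Bnip3), -0.57 (Egln1), -0.24 (Egln3), -0.96 (Eno1), -0.30 (Eno2), -1.04 (Gapdh), -0.69 (Gpi), -0.62 (Hif1a), -0.71 (Hk1), -0.19 (Hmox1), -0.91 (Ldha), -0.86 (Ldhb), -0.82 (Pfkl), -0.63 (Pgk1), -1.02 (Pkm), -0.70 (Slc16a1), -0.15 (Slc2a1), -0.48 (Tpi1) and -0.77 (Vegfa). At 48 h it gave -0.21 (Adm), -0.36 (Aldoa), -0.54 (Bnip3), -0.73 (Egln1), -0.29 (Egln3), -1.11 (Eno1), -0.20 (Eno2), -1.19 (Gapdh), -0.65 (Gpi), -0.86 (Hif1a), -0.81 (Hk1), -1.02 (Ldhb), -0.74 (Pfkl), -0.44 (Pfkm), -0.99 (Pgk1), -0.41 (Slc2a1), -0.55 (Tpi1) and -0.77 (Vegfa). With the median of all genes taken off, the turned values at 2 h were -0.06 (Aldoa), -0.20 (Egln1), -0.78 (Gapdh), -0.49 (Gpi), -0.69 (Hif1a), 0.41 (Hk2), -0.01 (Hmox1), -0.29 (Ldha), -0.57 (Ldhb), 0.57 (Pdk1), -0.42 (Pfkl), -0.89 (Pgam1), -0.35 (Pgk1), -0.56 (Pkm), -0.17 (Tpi1) and -0.36 (Vegfa). Those at 4 h were -0.69 (Eno1), -0.63 (Gapdh), -0.38 (Gpi), -0.64 (Hif1a), -0.02 (Ldha), -0.34 (Ldhb), -0.45 (Pfkl), -0.79 (Pgam1), -0.13 (Pgk1) and -0.43 (Pkm). Those at 24 h were -0.12 (Egln1), -0.50 (Eno1), -0.58 (Gapdh), -0.23 (Gpi), -0.17 (Hif1a), -0.25 (Hk1), 0.31 (Hk2), -0.45 (Ldha), -0.41 (Ldhb), -0.37 (Pfkl), -0.17 (Pgk1), -0.57 (Pkm), -0.24 (Slc16a1), -0.02 (Tpi1) and -0.31 (Vegfa). Those at 48 h were -0.07 (Bnip3), -0.26 (Egln1), -0.64 (Eno1), -0.72 (Gapdh), -0.18 (Gpi), -0.39 (Hif1a), -0.34 (Hk1), 0.22 (Hk2), -0.55 (Ldhb), 0.40 (Pdk1), -0.27 (Pfkl), -0.52 (Pgk1), -0.08 (Tpi1) and -0.30 (Vegfa), and from 4 to 24 h -0.02 (Aldoc). With probes averaged, the values were 0.00 (Hk1, 2 h), 0.03 (Ero1a, 24 h) and 0.08 (Pgam1, 24 h). The cause of these turns was not tested.

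The members called numbered 27 at 2 h under median centring and 27 with the median of all genes taken off, in place of 17. From 2 to 4 h they numbered 1 and 2 under these, and 6 with no filter, in place of 10. Median centring gave 7 from 4 to 24 h, 3 from 24 to 48 h and 14 over time, in place of 18, 8 and 27. Leaving out 1 array gave 9 to 17 members at 2 h, 17 to 19 at 4 h, 22 to 25 at 24 h, 22 to 24 at 48 h, 3 to 10 from 2 to 4 h, 14 to 18 from 4 to 24 h, 7 to 9 from 24 to 48 h, 20 to 24 for late against early and 22 to 27 over time. With the replicate number (slide) as a block, 17, 20, 25 and 24 members were called at 2, 4, 24 and 48 h and 12, 19, 9 and 23 for the steps and late against early, and no direction changed. Alternatives for the steps between times were added after the data were seen.

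Most probes are dim, with a median green signal per array of 64.6 to 71.5 where the background is 47 to 52. The fall of Slc2a3, a dim member, from 2 to 4 h was -0.61 with an offset of 0 in place of -0.28. No untreated culture beside 24 or 48 h was analysed here, so time in low serum cannot be told apart from forskolin.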
